A study of Rattus norvegicus with 2 samples.

Results

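Genes of cholesterol synthesis were examined in the spleen of 1 rat given cocaine and 1 control rat, by the signals of 7 of the 8 genes of a set chosen by name: Hmgcs1, Idi1, Fdps, Fdft1, Sqle, Lss, Cyp51 and Insig1. Hmgcs1, which makes hydroxymethylglutaryl-CoA early in the pathway, was not analysed here. The other 7 genes each had 1 transcript cluster, a set of probes that gives 1 signal per gene, among 15037 named genes. Both animals were male Sprague-Dawley rats, 6 weeks old at the start. The treated rat was given 7 daily intraperitoneal injections of cocaine (hydrochloride, 50 mg/kg, in saline), the control rat was given the vehicle, and spleens were collected 24 h after the last one. The control sample was identified by its title (Rat spleen No Stimulation), since its treatment label repeats the cocaine protocol. That control rats received the vehicle is stated in the authors' methods, not in this title. Total RNA of the whole spleen was hybridized to Clariom S rat arrays, 1 array per rat. The values were log2 signals as the authors deposited them, and each difference is cocaine minus control on this scale, so that 1 equals a 2-fold higher signal after cocaine. A single array per group gives neither an error nor a p-value, and how precise a value is depends on having only these 2 arrays.

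Cells make cholesterol from acetyl-CoA by way of mevalonate, isoprenoid diphosphates, squalene and lanosterol. When sterols in the endoplasmic reticulum are scarce, the protein SCAP carries the transcription factors SREBP to the Golgi, where they are cut and released to activate the genes of synthesis and of lipoprotein uptake, and when sterols are plentiful the INSIG proteins hold SCAP back. In the spleen, dividing blood cell precursors and lymphocytes need sterols for new membranes, and red pulp macrophages take up large amounts of cholesterol from the red cells they clear.

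The promoters of Cyp51 and Insig1, the genes with the highest differences of the set, are shown with those of Fdps and Idi1, 2 enzymes of the isoprenoid steps that differed less. They are RefSeq sequences of the rat assembly GRCr8, each of 300 bases (250 before and 50 after the annotated start of the gene), and 6 of the 8 genes had an entry. The window of Cyp51 lies at chr4:30991443-30991742, plus strand, that of Insig1 at chr4:8057720-8058019, minus strand, that of Fdps at chr2:176804767-176805066, minus strand, and that of Idi1 at chr17:66547475-66547774, minus strand. Capitals mark the CCAAT box (CCAAT, or ATTGG on the other strand), which NF-Y binds, and the GC box (GGGCGG, or CCGCCC), which Sp1 binds, both known as partners of SREBP.
Cyp51: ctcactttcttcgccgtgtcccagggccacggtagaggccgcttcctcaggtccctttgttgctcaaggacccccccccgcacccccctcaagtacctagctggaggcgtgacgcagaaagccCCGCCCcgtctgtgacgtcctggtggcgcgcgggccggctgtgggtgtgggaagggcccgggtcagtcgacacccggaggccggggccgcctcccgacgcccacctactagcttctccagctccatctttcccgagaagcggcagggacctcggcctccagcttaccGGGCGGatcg
Insig1: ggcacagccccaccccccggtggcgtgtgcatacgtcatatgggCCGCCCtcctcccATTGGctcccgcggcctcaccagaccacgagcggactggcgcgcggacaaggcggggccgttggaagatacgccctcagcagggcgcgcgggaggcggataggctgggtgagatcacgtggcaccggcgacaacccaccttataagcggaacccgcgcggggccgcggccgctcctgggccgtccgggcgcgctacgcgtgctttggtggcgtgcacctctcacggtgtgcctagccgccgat
Fdps: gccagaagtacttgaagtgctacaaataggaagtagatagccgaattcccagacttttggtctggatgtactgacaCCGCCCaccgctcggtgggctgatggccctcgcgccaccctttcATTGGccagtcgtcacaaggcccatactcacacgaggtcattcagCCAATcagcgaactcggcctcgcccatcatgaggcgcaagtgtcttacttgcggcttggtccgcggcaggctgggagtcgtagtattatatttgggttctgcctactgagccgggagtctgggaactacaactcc
Idi1: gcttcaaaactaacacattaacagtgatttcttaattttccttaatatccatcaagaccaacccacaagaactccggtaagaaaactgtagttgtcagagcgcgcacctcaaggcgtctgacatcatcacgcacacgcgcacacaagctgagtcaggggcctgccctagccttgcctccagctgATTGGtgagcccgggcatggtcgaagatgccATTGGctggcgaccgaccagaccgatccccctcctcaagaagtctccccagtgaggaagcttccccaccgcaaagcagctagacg
The matches did not overlap each other. Cyp51 had no CCAAT box and 2 GC boxes in its window, of which 1 lies before the start. Insig1 had 1 of each, Fdps had 2 CCAAT boxes and 1 GC box, and Idi1 had 2 CCAAT boxes and no GC box. Of the 6 promoters, 5 held a CCAAT box and 5 a GC box, against 37.5% and 33.1% of all 33469 promoters of the table. The core of the sterol response element was searched only as exact matches to TCACNCCAC. Such a match was in none of the 6 on either strand and in 1.12% of all promoters. Elements that differ from these letters were not searched, so that the windows cannot be said to lack them. These matches describe the letters of the windows, and binding was not measured.

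The signals of the set did not differ in 1 direction. Cyp51, the demethylase that acts first on lanosterol, had a log2 signal of 10.03 after cocaine against 8.77 in the control, that is, a difference of 1.26 or 2.40-fold. Insig1, which retains SCAP and is itself activated by SREBP, had signals of 10.73 and 9.84, a difference of 0.89 or 1.85-fold. Fdft1, squalene synthase, differed the other way, with 7.77 after cocaine against 8.59 in the control, that is, a difference of -0.81 or 1.76-fold lower. These 3 genes had the largest differences of the set. Fdps, which makes farnesyl diphosphate, the substrate of Fdft1, had signals of 9.89 after cocaine against 9.43 in the control, that is, a difference of 0.45 or 1.37-fold.
Differences of the remaining 3 genes were close to that of the median gene. Sqle, the squalene epoxidase, had signals of 8.85 after cocaine against 8.70 in the control, that is, a difference of 0.15. Idi1, which interconverts the isoprenoid diphosphates, had 8.83 and 8.80, a difference of 0.02. Lss, which closes the rings to form lanosterol, had 5.63 and 5.72, a difference of -0.09, and both signals lay under the highest of the 23 background features of the array (7.76 on both arrays). This limit lies above the median signal of both arrays, which was 6.97. It is not strict, since 436 of 1153 negative control features also had both signals above it. A signal above this limit is therefore not proof that the transcript was detected. Sqle and Idi1 were thus almost level between the arrays, and the signals of Lss cannot be told from background by this limit. The signal of Fdft1 in the cocaine rat was only just above the highest background feature, so that its difference rests on a low signal.

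**Figure D1:**
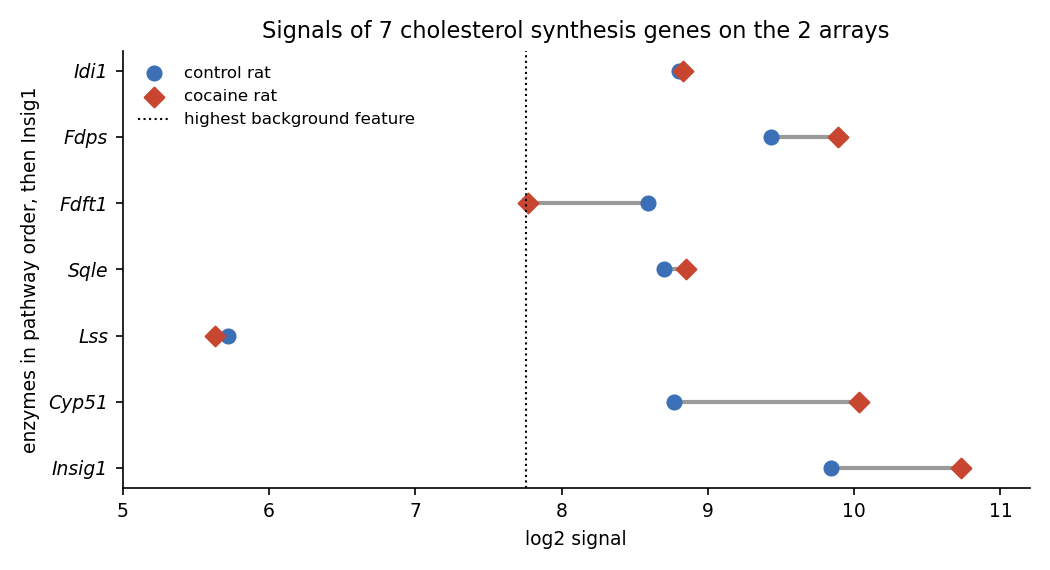
Log2 signals of the 7 genes in the control rat (circles) and the cocaine rat (diamonds), 1 array each, with the highest background feature at 7.76 as a dotted line. Cyp51 had 8.77 in the control rat and 10.03 in the cocaine rat, while Fdft1 lay at 7.77 in the cocaine rat, beside the dotted line, and Lss lay under it on both arrays.

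Only Cyp51 was at least 2-fold higher, 1 of 7 genes, and no gene of the set was lower by that factor. The background shares were 2.28% of all 15037 named genes for a signal at least 2-fold higher (343) and 4.97% for one at least 2-fold lower (748). Centring both arrays on their 75th percentile changed these counts to 509 and 657. Among the 6511 named genes with both signals above the highest background feature, as was the case for 6 of the 7 genes, the shares were 2.15% and 6.96%. At 1.5-fold, 2 of the 7 genes (Cyp51 and Insig1) were higher and 1 (Fdft1) was lower, against 11.6% and 11.7% of all named genes. The median difference of the 7 genes was 0.15, against 0.04 for all named genes.
Ranked by difference among the 15037 named genes, Cyp51 was number 102 from the highest and Insig1 number 551, while Fdft1 was number 1061 from the lowest. The 5th and 95th percentiles of all named genes were -1.0 and 0.80. Cyp51 and Insig1 exceeded the upper of these bounds and Fdft1 did not pass the lower one. Control features gave a second view of the spread. Of 436 negative control features (so named by their IDs) with both signals above the highest background feature, 11% were higher by 2-fold or more and 3.90% lower. Their differences had a median of 0.24 and an SD of 0.71, so that they were shifted upward as a group. The 6511 named genes with both signals above that feature had a median of 0.01 and an SD of 0.73. A difference at least as high as that of Cyp51 was found for 26 of these 436 features and for 43 of the 6511 named genes. Whether the difference of Cyp51 exceeds the spread between rats or arrays was not tested.

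**Figure D2:**
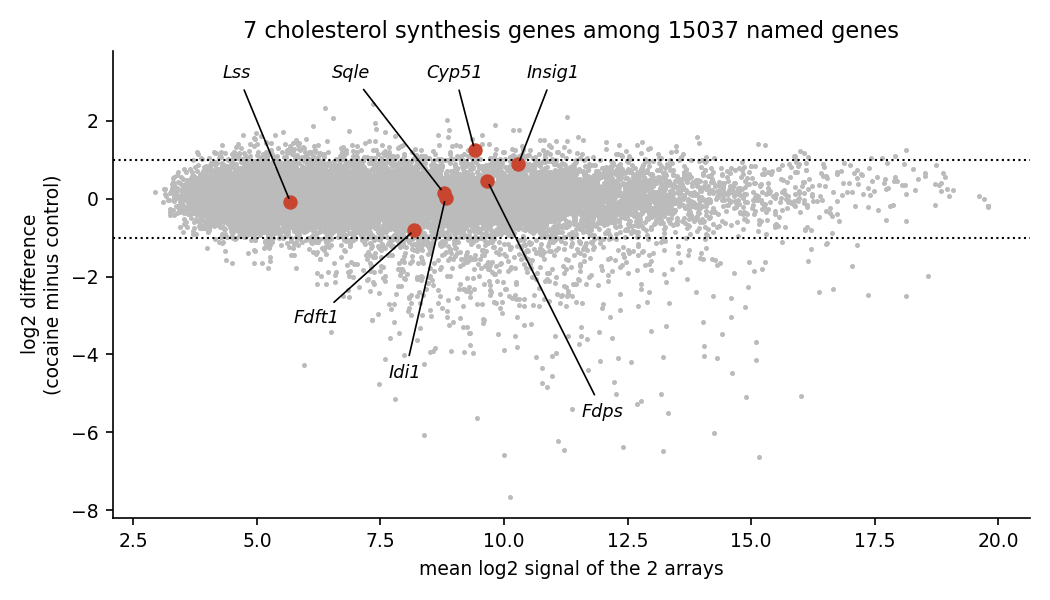
Log2 difference (cocaine minus control) against the mean log2 signal of the 2 arrays for 15037 named genes (grey points), with the 7 cholesterol synthesis genes in red and 2-fold differences as dotted lines. Cyp51 (1.26) is the only one of the 7 outside the dotted lines, and the cloud extends much further down, to -7.67, than up.

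The other enzymes of the pathway were read from a wider list. In the steps from acetyl-CoA to isopentenyl diphosphate, 4 of 5 listed genes were measured, with a median difference of -0.12 and none past 2-fold. Mvk, mevalonate kinase, had a difference of 0.91, but both of its signals (7.75 after cocaine and 6.84 in the control) lay under the highest background feature. Pmvk, the kinase that follows, had signals of 8.34 and 8.33, a difference of 0.01, and was the only one of the 4 with both signals above that feature. Mvd, which forms isopentenyl diphosphate, had a difference of -0.46 and Acat2, the thiolase of the first step, one of -0.24.
After lanosterol, 8 of 10 listed genes were measured, with a median difference of 0.02, and none was past 2-fold. Msmo1, the sterol oxidase that acts soon after Cyp51, had signals of 10.46 after cocaine against 10.11 in the control, that is, a difference of 0.34. Sc5d, Ebp and Erg28, of the last steps and the enzyme scaffold, had differences of -0.13, -0.02 and -0.02. For the other 4 genes neither signal exceeded the highest background feature, with differences from -0.08 for Nsdhl to 0.63 for Hsd17b7. Of the 18 sterol enzymes measured in all, 1 was past 2-fold (Cyp51, higher), 3 were higher by 1.5-fold or more (Cyp51, and Mvk and Hsd17b7 with signals under the highest background feature), 1 was lower by 1.5-fold or more (Fdft1), and the median difference was 0.02. For all named genes the shares were 2.28% at 2-fold higher, 11.6% at 1.5-fold higher and 11.7% at 1.5-fold lower. Beside Cyp51 in the pathway, Msmo1 differed less, and the signals of Lss lay under the background limit.

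**Figure D3:**
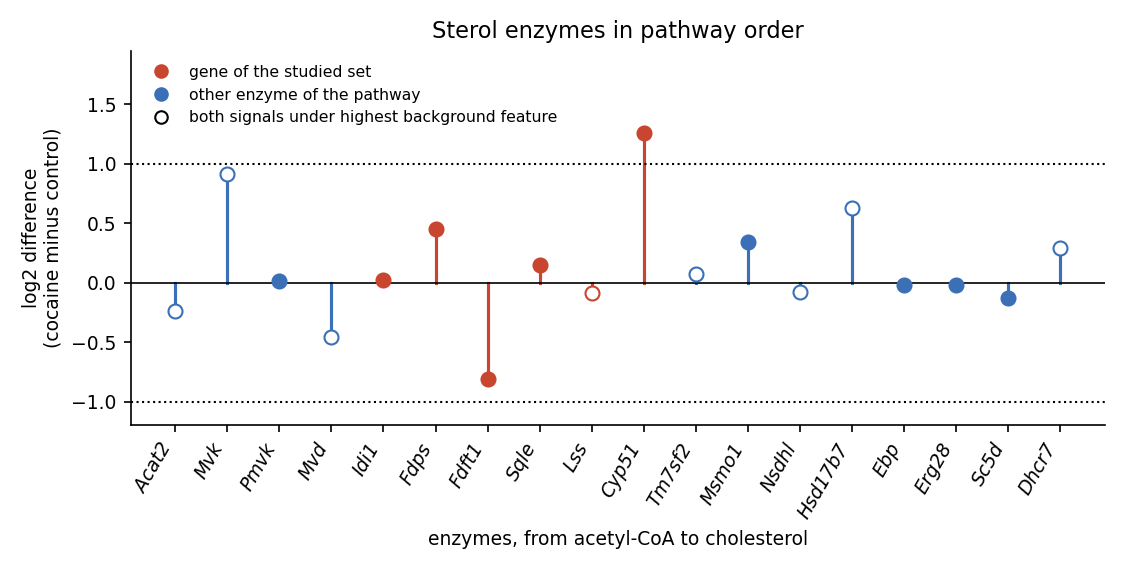
Log2 difference (cocaine minus control) of the 18 measured sterol enzymes in the order of the pathway, with genes of the studied set in red, other enzymes in blue, open symbols where both signals lay under the highest background feature, and 2-fold differences as dotted lines. Cyp51 (1.26) and Fdft1 (-0.81) stand apart in opposite directions among the filled symbols.

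Genes that sense sterols differed in both directions. Of 11 measured genes of the SREBP machinery and of sterol-sensed protein degradation, none was past 2-fold and the median was -0.08. Of all named genes, 2.28% were at least 2-fold higher and 4.97% lower, so that none among 11 is near these shares. Srebf2, which encodes the SREBP that mainly drives cholesterol synthesis, had signals of 10.02 after cocaine against 10.30 in the control, that is, a difference of -0.28, and Srebf1 one of -0.27. Scap had a difference of 0.01 with both signals within the background features. The differences of Srebf1 and Srebf2 were opposite to that of Insig1. Insig2, the second INSIG protein, had signals of 9.41 and 8.86, a difference of 0.55, and Rnf139, a ubiquitin ligase of the endoplasmic reticulum, one of -0.68. Spring1, a factor needed for SREBP activation, had a difference of 0.80 with both signals under the highest background feature. Among 3 other genes known to be controlled by sterols, Tmem97, a sterol-binding membrane protein, had signals of 9.02 after cocaine against 8.17 in the control, that is, a difference of 0.86. The sterol carrier Stard4 and the ubiquitin ligase Mylip, which degrades lipoprotein receptors, had differences of 0.04 and 0.17.

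Genes of lipoprotein uptake and lysosomal cholesterol, of which 10 of 14 were measured, had a median difference of -0.03 with none past 2-fold. Differences ran both ways: the receptor Vldlr (0.65) and the lysosomal lipase Lipa (0.62) had higher signals, and Lrp1 (-0.85) and the HDL receptor Scarb1 (-0.90) lower ones. The signal of Lrp1 was 10.70 after cocaine and 11.54 in the control. That of Scarb1 was 7.62 in the cocaine rat, under the highest background feature, against 8.52. Genes of cholesterol efflux and targets of LXR, the receptor for oxysterols, were all 11 measured, with a median of 0.06. Abca7, a lipid transporter, was at least 2-fold lower as deposited (-1.10), but with its signal in the cocaine rat (7.30) raised to the highest background feature the difference was -0.64. Lpcat3, which remodels phospholipids, had a difference of -0.99, and the exporter Abcg1 (0.37) and the receptor partner Rxra (-0.34) differed less. Of 5 genes of cholesterol esters, Soat1, the esterifying enzyme, had a difference of 0.10. Lcat (-0.99), Soat2 (-0.58) and Nceh1 (0.37) did not exceed the highest background feature on either array, and the lipid droplet protein Plin2 had a difference of -0.17.
Over 10 such lists, which include isoprenoid, oxysterol and fatty acid genes, 92 of 106 genes were measured, none was higher by 2-fold and 3 were lower by 2-fold or more (Abca7, Fads2 and Elovl1), against 2.28% and 4.97% of all named genes, with a median difference of -0.02.

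Signals of erythroid and cycling cell markers differed far more than those of the sterol genes. After cocaine all 10 erythroid markers were lower by 2-fold or more (median difference -5.52), against 4.97% of all named genes. Their summed signal was 14.17 on the log2 scale against 19.73 in the control. Several of them, such as Alas2 and Slc4a1, are among the genes that the authors listed as most lowered on these arrays. Their low signals were thus known beforehand. With a floor at the highest background feature, 9 of the 10 were still past 2-fold. The exception was Klf1, an erythroid transcription factor, whose signal of 3.83 after cocaine leaves a difference of -0.34. Tfrc, the transferrin receptor of dividing and erythroid cells, had signals of 12.26 and 16.36. All 7 measured markers of cycling cells were also lower by 2-fold or more (median -2.75), against the same 4.97%. Their summed signals were 13.03 and 16.64. The 4 T cell markers had higher signals in the cocaine rat (0.20 to 0.96, summed 12.56 against 12.20), as did the B cell receptor chain Cd79b (0.63), the only B cell marker measured. The 6 macrophage markers had lower ones (-0.75 to -0.26, summed 14.94 against 15.43). The difference of Cyp51 was larger than that of each of these lymphocyte markers, and that of Insig1 lay within their range. The part of cell composition in the differences of the sterol genes was not tested, and in whole tissue fewer cells of a type and less RNA per cell cannot be told apart. For tissues near the spleen, neither signal of any of the 4 pancreas markers exceeded the highest background feature. The same held for 4 of 5 hepatocyte markers and 2 of 3 adipocyte markers. The exceptions were Ttr and Adipoq, each with 1 signal under that feature. Ttr had signals of 8.57 after cocaine against 6.12 in the control, and its difference of 2.44 was the highest of all named genes. Adipoq had 6.22 after cocaine against 8.28 in the control, a difference of -2.06.

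**Figure D4:**
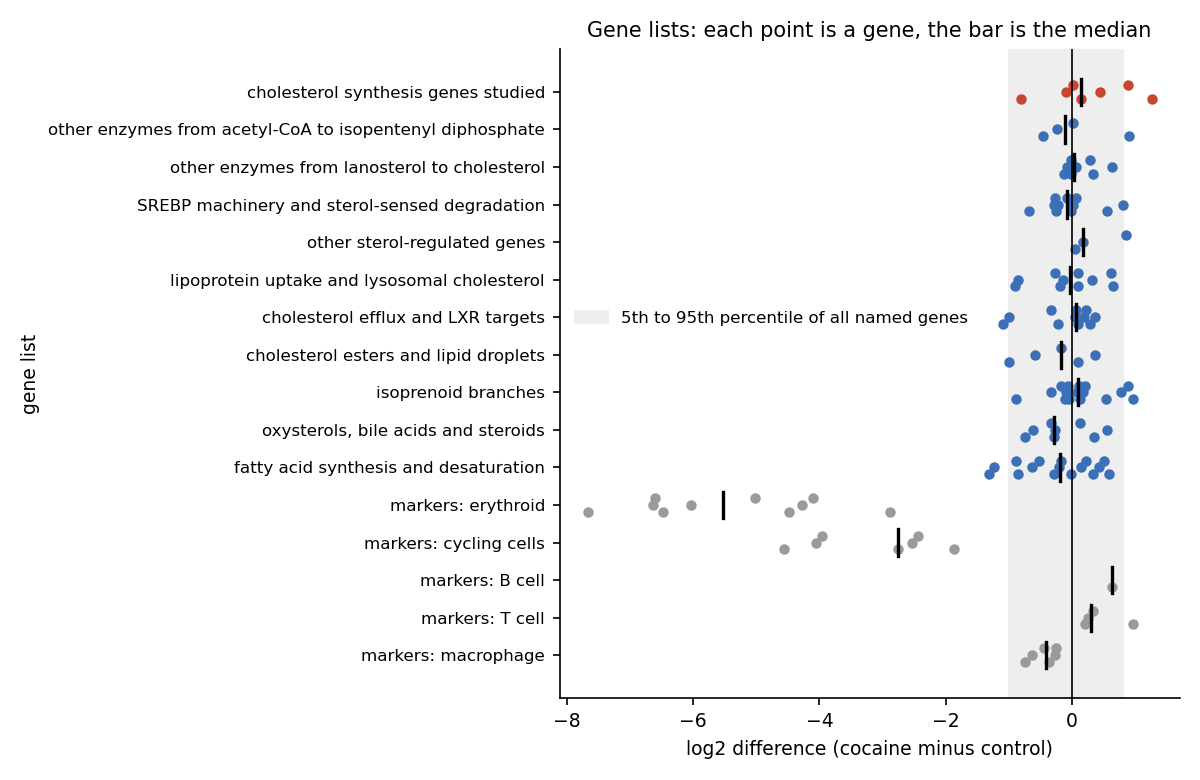
Log2 difference (cocaine minus control) of each measured gene (points) in the cholesterol synthesis genes studied (red), the related lists (blue) and the spleen cell markers (grey), with the list median as a bar and the 5th to 95th percentile of all named genes (-1.0 to 0.80) shaded. The sterol lists centre near 0, while the erythroid and cycling cell markers lie far to the left, with medians of -5.52 and -2.75.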

How the data were processed

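The authors extracted total RNA from the spleens of 1 cocaine-treated and 1 control rat (TRIzol, then RNeasy columns with DNase I digestion) and hybridized it to Clariom S rat arrays. Each deposited value was a log2 signal of 1 feature. How the authors corrected background, summarised probes and normalized arrays, and the build of the array annotation, remain unstated in the sources used here. Both columns were used (0 left out), and 1646 control features were kept apart from 23188 transcript clusters, of which 15049 had 1 gene symbol. All 139 symbols of the gene lists that were measured matched the RefSeq symbol of their Entrez identifier. A symbol with several clusters was represented by its brightest one (highest mean of both arrays).

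No further normalization was applied, since both arrays had a median of 6.97. This median lies under the highest background feature (7.76), so that it does not show that higher signals are on the same scale. Centring on the 75th percentile changed the 2-fold counts of all named genes from 343 higher and 748 lower to 509 and 657. Genes were counted at 2-fold, the threshold used in the study. Some listed genes were not analysed here. The genes of the set and the lists were chosen by name with earlier results of these data known. Named in the text were all genes of the set, up to 4 genes of each list with the largest difference, any past 2-fold with its higher signal at or above the median of its array, and further sterol enzymes and regulators. Soat1, Scd2, Acss2 and the cell type markers given with values were named after their values were seen. The 9 alternatives comprised 4 scalings (loess span 0.3), a filter at the array median, a floor at the highest background feature, 1.5-fold and 4-fold thresholds, and means over clusters. Scalings and counts were tested on simulated data with little noise and as many genes raised as lowered. The differences of these arrays were wider and more of them were lower, a case that the simulation did not cover. Software was statsmodels 0.14.6, matplotlib 3.10.9, pandas 2.3.3, numpy 2.4.6 and python 3.11.15.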

Additional observations from a re-analysis of the deposited data

How the results depend on the processing

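Cyp51 was the only gene of the set past 2-fold under each of the 4 scalings, with the filter at the array median, with the background floor and with means over clusters. Its difference lay between 1.24 and 1.37 over the scalings, that of Insig1 between 0.86 and 0.98 and that of Fdft1 between -0.84 and -0.72. The sign of Lss turned with 75th percentile centring (0.01). The median of the set lay between 0.13 (loess) and 0.30 (filter at the array median). The count of genes of the set past the threshold was 3 at 1.5-fold and 0 at 4-fold. For the 92 genes of the related lists, it was 3 at 2-fold, 24 at 1.5-fold and 0 at 4-fold. At 2-fold it was 5 with 75th percentile centring (2 higher and 3 lower) and 5 with the loess correction (0 higher and 5 lower). Of all 15037 named genes, 1748 (11.6%) were higher and 1765 (11.7%) lower at 1.5-fold, and 5 and 246 at 4-fold. At 2-fold, 509 were higher and 657 lower with 75th percentile centring, and 269 and 826 with the loess correction. The background floor sets the difference of each gene with both signals under it to 0, as for Lss, Mvk, Hsd17b7, Spring1 and Lcat. No leave-one-out analysis was possible with 1 array per group. No paired analysis was possible because each group has 1 sample. The number of arrays and signals near background limit every value.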

Other observations

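Branches that leave the sterol pathway had signals in both directions. Of 16 measured genes that use isoprenoid diphosphates, none was past 2-fold and the median difference was 0.09. The shares of all named genes were 2.28% at least 2-fold higher and 4.97% lower. A count of none in lists this short, here and for the oxysterol genes below, is near these shares. Chm, an escort protein for the prenylation of Rab proteins, had log2 signals of 11.27 after cocaine against 10.30 in the control, that is, a difference of 0.97, which was 1.06 with 75th percentile centring and with quantile normalization. Pggt1b, a subunit of a protein prenyltransferase, had a difference of 0.89 and Coq2, an enzyme of ubiquinone synthesis, one of 0.78. Dolk, dolichol kinase, had a difference of -0.88 with both signals under the highest background feature. Of 8 measured genes of oxysterols, bile acids and steroids, none was past 2-fold and 5 had both signals under that feature, among them Cyp11a1 (-0.62), Cyp7b1 (0.56) and Ch25h (0.35). Hsd3b7, an enzyme of bile acid synthesis, had signals of 8.58 and 9.33, a difference of -0.75.

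Fatty acid genes, which SREBP also controls in part, had a median difference of -0.19 over 16 genes, and 2 were at least 2-fold lower, against 4.97% of all named genes. Elovl1, which elongates saturated fatty acids, had signals of 13.08 after cocaine against 14.40 in the control, that is, a difference of -1.32 or 2.50-fold lower. The desaturase Fads2 had signals of 9.53 and 10.76, a difference of -1.23, and Fads1, which acts in the same pathway, had 12.78 and 13.68, a difference of -0.89. Mid1ip1, an activator of acetyl-CoA carboxylase, had a difference of -0.86. At 1.5-fold, 5 genes were lower and 1 was higher (Scd2, a desaturase, with signals of 13.95 and 13.37), against 11.7% and 11.6% of all named genes. The 5 lower genes include Acss2 (-0.64), whose signals of 6.71 after cocaine and 7.35 in the control both lay under the highest background feature. The part of cell composition in these differences was not tested.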
